A study of Mus musculus with 24 samples.

Results

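The interferon-stimulated genes are a module of 40 mouse genes named by symbol. They were looked up by symbol in the PAPERCLIP count files, which list 23871 genes, and by Ensembl identifier in the RNA-seq count files, which list 47069 identifiers. All 40 were present in both. The module was compared between lipopolysaccharide (LPS) and saline (PBS) in both assays and between brain cell types at baseline.

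The cTag-PAPERCLIP mice carry a Cre recombinase that turns on poly(A)-binding protein fused to GFP in cells where its promoter is active, and crosslinked mRNA 3' ends are pulled down from whole tissue with antibodies to GFP. Gfap-Cre; Ctag-PABP, Gad2-Cre; Ctag-PABP and Camk2a-Cre; Ctag-PABP mice gave 2 libraries each from cortex, enriched for astrocytes, inhibitory neurons and excitatory neurons. Cx3cr1-Cre; Ctag-PABP mice gave 2 libraries from untreated whole brain, 3 after PBS and 3 after LPS. All of these mice carried a Cre and the tag, and the Cx3cr1 promoter is also active in other brain macrophages and in blood monocytes. The dose, route, days and ages of the PAPERCLIP LPS experiment are not given in the labels. RNA-seq covered wild-type adult C57BL/6 microglia pulled out of dissociated brain with CD11b beads, 2 brains per tube, with 3 libraries from mice given PBS and 3 from mice given LPS at 1 mg/kg, injected into the peritoneum on each of 4 days. For liver there was 1 PAPERCLIP library, whose strain label reads CL57/B6J and which names neither Cre nor tag, and 3 RNA-seq libraries came from Ptbp2-KO cortex of E18.5 embryos. Only the knockout libraries are described as biological replicates, so p-values here rest on library-to-library spread that may be technical.

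Interferons are cytokines released when a cell senses a virus or a bacterial product. Type I interferons bind the Ifnar1 and Ifnar2 receptor, whose kinases phosphorylate STAT proteins such as Stat2; with Irf9 these form a complex that enters the nucleus and binds the interferon-stimulated response element (ISRE) in promoters. LPS, a bacterial cell wall component, reaches this pathway through Toll-like receptor signalling. In the brain, microglia are the resident macrophages and are known to raise interferon-stimulated genes in infection, injury and disease.

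Promoter windows from RefSeq (GRCm38.p6, from 250 bases before to 50 after each annotated start) covered 29 of the 40 genes. Entries for Oas2, Mx1, Mx2, Usp18, Ifi27l2a, Ifi204, Dhx58, Rtp4, Parp9, Parp14 and Zbp1 were missing. The ISRE was searched on both strands as GAAA, any 2 bases, GAAA. It was present in 14 of the 29 genes (48.3%), against 1079 of 27025 genes in the table (3.99%). With a C required after the second GAAA it was present in 11 of 29 (37.9%), against 255 of 27025 (0.944%). The promoters below belong to the 4 members with the most PAPERCLIP counts among those that rose with LPS in both assays and hold the ISRE, which stands in capitals. Each is 5' to 3' on the strand of its gene.
Bst2 promoter: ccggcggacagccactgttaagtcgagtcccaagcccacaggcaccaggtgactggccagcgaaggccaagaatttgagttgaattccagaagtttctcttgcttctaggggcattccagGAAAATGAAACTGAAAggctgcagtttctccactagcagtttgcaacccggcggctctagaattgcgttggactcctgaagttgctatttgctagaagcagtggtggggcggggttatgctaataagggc
Ifitm3 promoter: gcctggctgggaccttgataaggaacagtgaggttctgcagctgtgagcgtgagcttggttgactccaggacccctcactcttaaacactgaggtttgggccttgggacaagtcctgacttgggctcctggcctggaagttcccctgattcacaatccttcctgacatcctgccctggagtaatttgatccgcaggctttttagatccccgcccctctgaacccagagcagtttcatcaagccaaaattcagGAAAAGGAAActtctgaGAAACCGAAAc
Ifit3 promoter: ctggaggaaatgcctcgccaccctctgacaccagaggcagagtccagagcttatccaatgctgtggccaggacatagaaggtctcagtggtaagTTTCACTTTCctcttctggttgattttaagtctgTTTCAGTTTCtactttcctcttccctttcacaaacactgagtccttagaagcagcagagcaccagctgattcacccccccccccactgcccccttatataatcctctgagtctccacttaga
Slfn5 promoter: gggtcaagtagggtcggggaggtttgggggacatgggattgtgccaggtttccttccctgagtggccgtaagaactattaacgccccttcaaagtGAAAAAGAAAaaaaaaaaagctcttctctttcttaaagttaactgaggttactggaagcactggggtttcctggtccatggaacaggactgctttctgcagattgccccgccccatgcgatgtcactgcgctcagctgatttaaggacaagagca
The Bst2 run is chr8:71537473-71537722, minus strand, and ends at the base before the start site. The Ifitm3 run is chr7:141010715-141010994, minus strand, and passes the start site, since both of its matches lie after it. The Ifit3 run is chr19:34583279-34583528, plus strand, and its matches are on the opposite strand. The Slfn5 run is chr11:82951852-82952101, plus strand. Both the Ifit3 and the Slfn5 run lie inside the annotated gene span, which begins at 34583119 and 82951349. The start sites used for these genes are therefore internal to the span. Bst2 encodes tetherin, which holds budding virus at the cell surface; Ifitm3 blocks virus entry in endosomes; Ifit3 belongs to a family that binds viral RNA; and Slfn5 is a Schlafen protein.

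With the start base at 0, the Bst2 matches lay at -130 to -121 and -124 to -115 and overlapped each other. The Ifitm3 matches lay at 2 to 11 and 19 to 28. The Ifit3 matches lay at -156 to -147 and -122 to -113, and the Slfn5 match at -155 to -146. Ifit1, a relative of Ifit3 on the same chromosome, held its pair at -104 to -95 and -85 to -76, and Isg15 held 3 overlapping matches between -78 and -57. The remaining genes with a match were Ifih1, Oas3, Oas1a, Trim30a, Stat2, Slfn8, Rsad2 and Eif2ak2. The gamma-activated sequence, TTC, any 3 bases, GAA, was found in 6 of the 29 genes (20.7%), against 9.55% of all genes in the table. In Bst2 and Ifitm3 it overlapped an ISRE match. An NF-kB motif, GGG, any 2 bases, TTTCC, was found in 0 of the 29, against 1.89% of all genes. A match describes letters in the window and not a bound site.

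**Figure D1:**
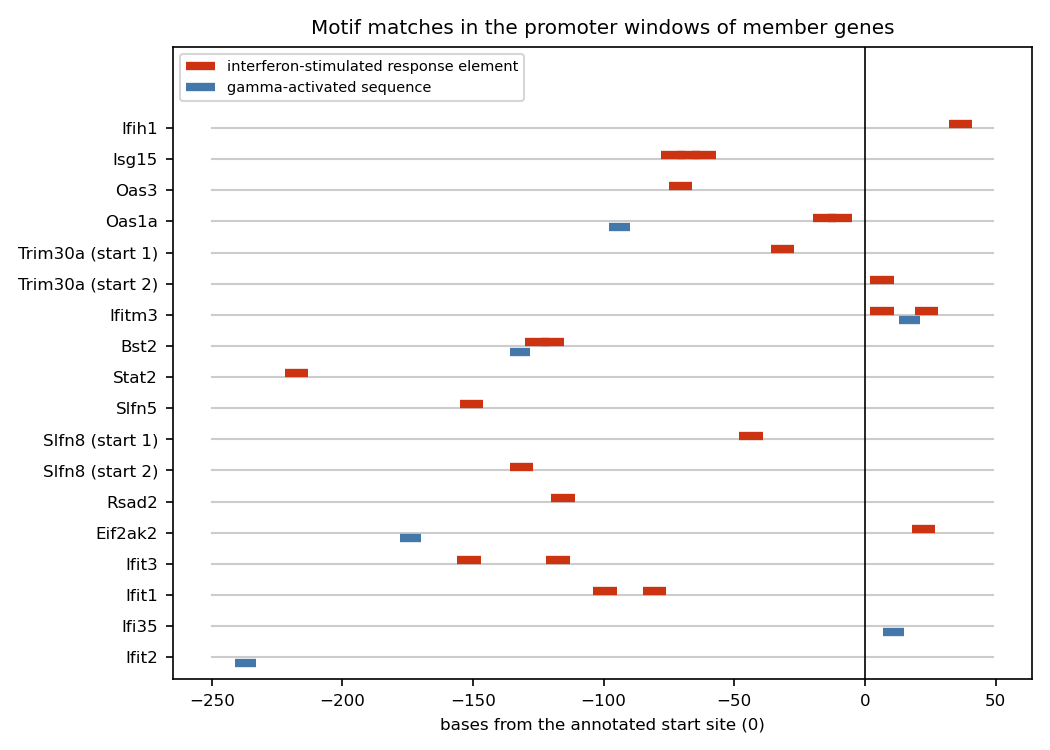
Positions of ISRE matches (red) and gamma-activated sequence matches (blue) in the promoter windows of member genes, in bases from the annotated start site, with a line for each window that holds a match. Genes with a match from more than 1 start are drawn once for each; most ISRE matches lie before the start, while those of Ifitm3, Ifih1, Eif2ak2 and 1 of the Trim30a windows lie after it.

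Many members sit beside relatives. Ifit2, Ifit3 and Ifit1 lie on chromosome 19 between 34550550 and 34650009 (GRCm38), and Slfn5, Slfn8 and Slfn2 on chromosome 11 between 82951349 and 83070678. Oasl2 and Oasl1 lie on chromosome 5 between 114896926 and 114937911, and Oas2, Oas3 and Oas1a between 120730333 and 120907544. Parp14, Dtx3l and Parp9 lie on chromosome 16 between 35831892 and 35972621, and the gene spans of Dtx3l and Parp9 overlap. Rsad2 and Cmpk2 are neighbours on chromosome 12. Mx1 and Mx2, on chromosome 16, are annotated in this reference strain as transcribed pseudogenes. How the authors assigned reads among near-identical copies, and with which strand setting, is not given in the labels, so Ifi27l2a, Trim30a, Oas1a, Ifit1, Ifit3, Slfn8, Ifi204, Dtx3l and Parp9 are uncertain to that extent.

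Depth was 266330 to 337770 counts in the PBS PAPERCLIP libraries, 679115 to 1041245 after LPS, 133456 to 154959 in untreated Cx3cr1 libraries and 630475 to 2005627 in cortical libraries. Microglial RNA-seq held 1250170 to 2133407 counts, the knockout cortex 19446610 to 27415288 and liver 115734. Markers of the labelled cells were high in their groups: 10 microglial markers held 4.14% to 5.17% of counts in untreated Cx3cr1 libraries and at most 0.0155% in the cortical ones, and 6 astrocyte markers held 1.95% to 2.21% in Gfap libraries. Other cells were present too. Oligodendrocyte markers held 0.102% and 0.707% in the 2 Gfap libraries, against at most 0.0516% in the other brain PAPERCLIP groups. Border macrophage markers held 0.0897% and 0.230% in untreated Cx3cr1 libraries. PBS replicate 3 of PAPERCLIP stood apart, with 0.287% of counts on 6 pan-neuronal markers and 0.190% on 6 liver markers, against a highest value of 0.0550% and 0.00368% in the LPS libraries. In tissue or bulk samples, fewer cells of a type and less RNA per cell cannot be told apart.

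In tagged microglia, interferon-stimulated genes rose with LPS and none fell. Of the 40 genes, 27 had enough counts to be tested, and 16 of these rose at an adjusted p of at most 0.05 (edgeR's quasi-likelihood test, Benjamini-Hochberg over all genes), against 2.74% of all genes tested. The members that passed the count filter could pass through their LPS libraries alone. The members and gene lists were also chosen with earlier results of these data known. Shares of all genes, here and below, are therefore description and not an unbiased test of the module. The log2 difference was above 0 in all 27, with a median of 1.78, while the median over all genes was -0.01. All 3 LPS libraries lay above all 3 PBS libraries for 22 of the 27, against 11.7% of all genes. No member fell by edgeR or by DESeq2, and none was lower at an unadjusted p under 0.05 by either tool (0 of 27). Together the 40 genes took 0.203%, 0.211% and 0.190% of counts in the 3 PBS libraries and 0.699%, 0.640% and 0.561% after LPS. Bst2 alone took 0.0874% to 0.118% and 0.197% to 0.282%, and the other 39 went from 0.0897% to 0.115% up to 0.360% to 0.417%. With the replicate number as a block, 424 genes were called over the whole table in place of 201, and 18 members in place of 16. Leaving out replicate 3 of both groups, which removes the PBS library that stood apart, gave 17.

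**Figure D2:**
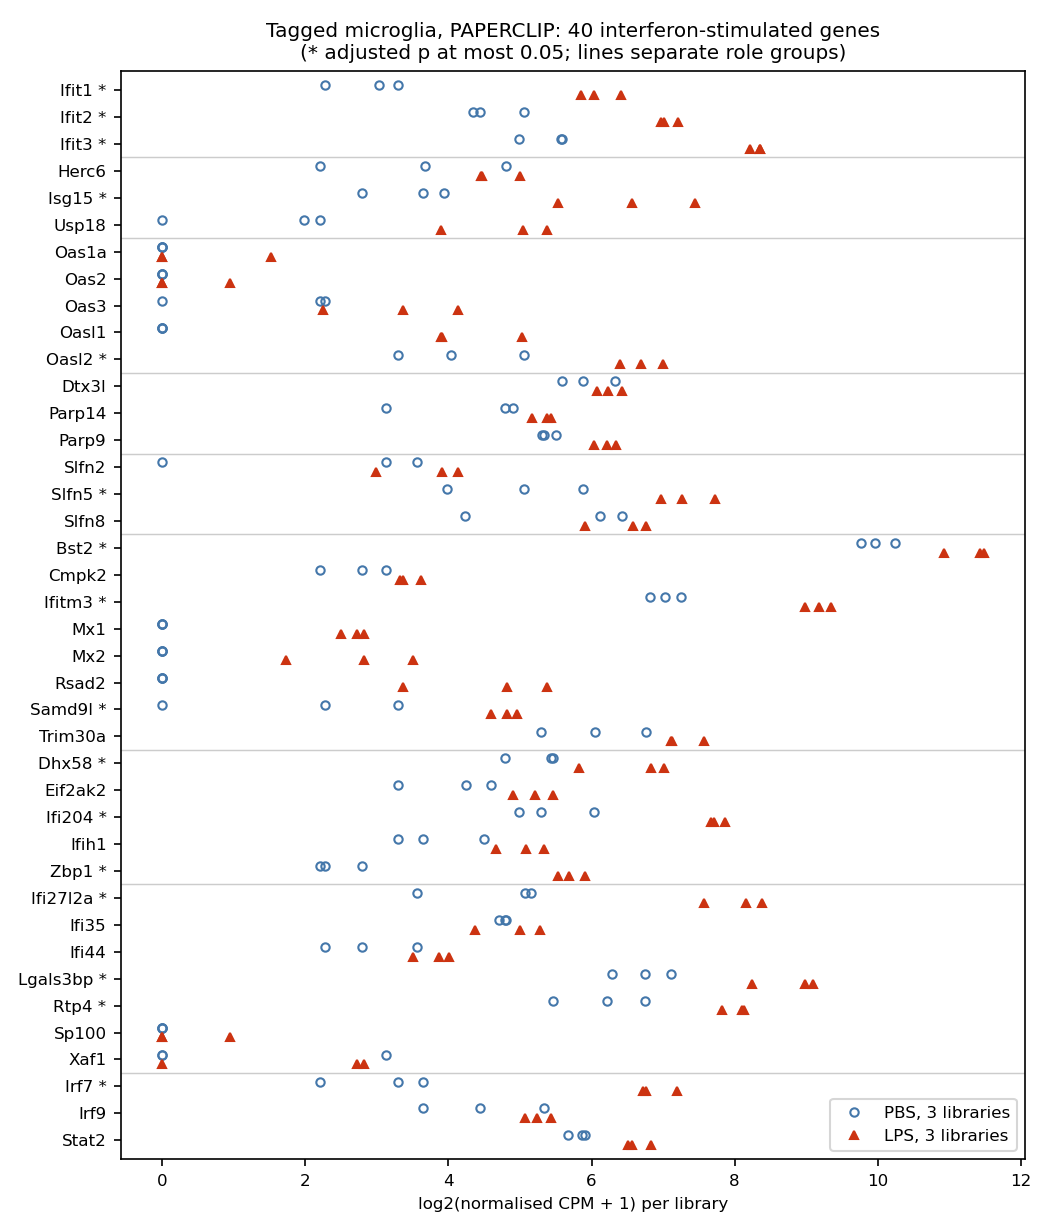
Each member's log2(normalised CPM + 1) in the 3 PBS (blue circles) and 3 LPS (red triangles) PAPERCLIP libraries of tagged microglia, grouped by role, with an asterisk on the 16 genes that passed the test. The LPS points lie to the right of the PBS points for most genes, and the genes at 0 after PBS include Mx1, Mx2, Oasl1 and Rsad2.

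In bead-isolated microglia, RNA-seq tested 39 of the 40 genes and 30 rose, against 15.9% of all genes; 0 fell, against 10.4%. Again no member was lower at an unadjusted p under 0.05 by edgeR or DESeq2 (0 of 39). The median log2 difference was 0.89 over the 39 members and -0.02 over all genes. The LPS libraries lay above the PBS libraries for 34 of the 39, against 22.1% of all genes. The members took 0.147%, 0.145% and 0.166% of counts after PBS and 0.315%, 0.355% and 0.301% after LPS. Scaling by total counts alone moved the median over all genes from -0.02 to -0.12 and the whole-table split from 1634 higher and 1072 lower to 1284 higher and 1630 lower; 28 members still rose. Of the 27 members tested in both assays, 15 rose in both, 1 (Rtp4) was called in PAPERCLIP and not in RNA-seq, 7 were called in RNA-seq and not in PAPERCLIP, and 4 in neither (Irf9, Ifi35, Herc6 and Slfn8).

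**Figure D3:**
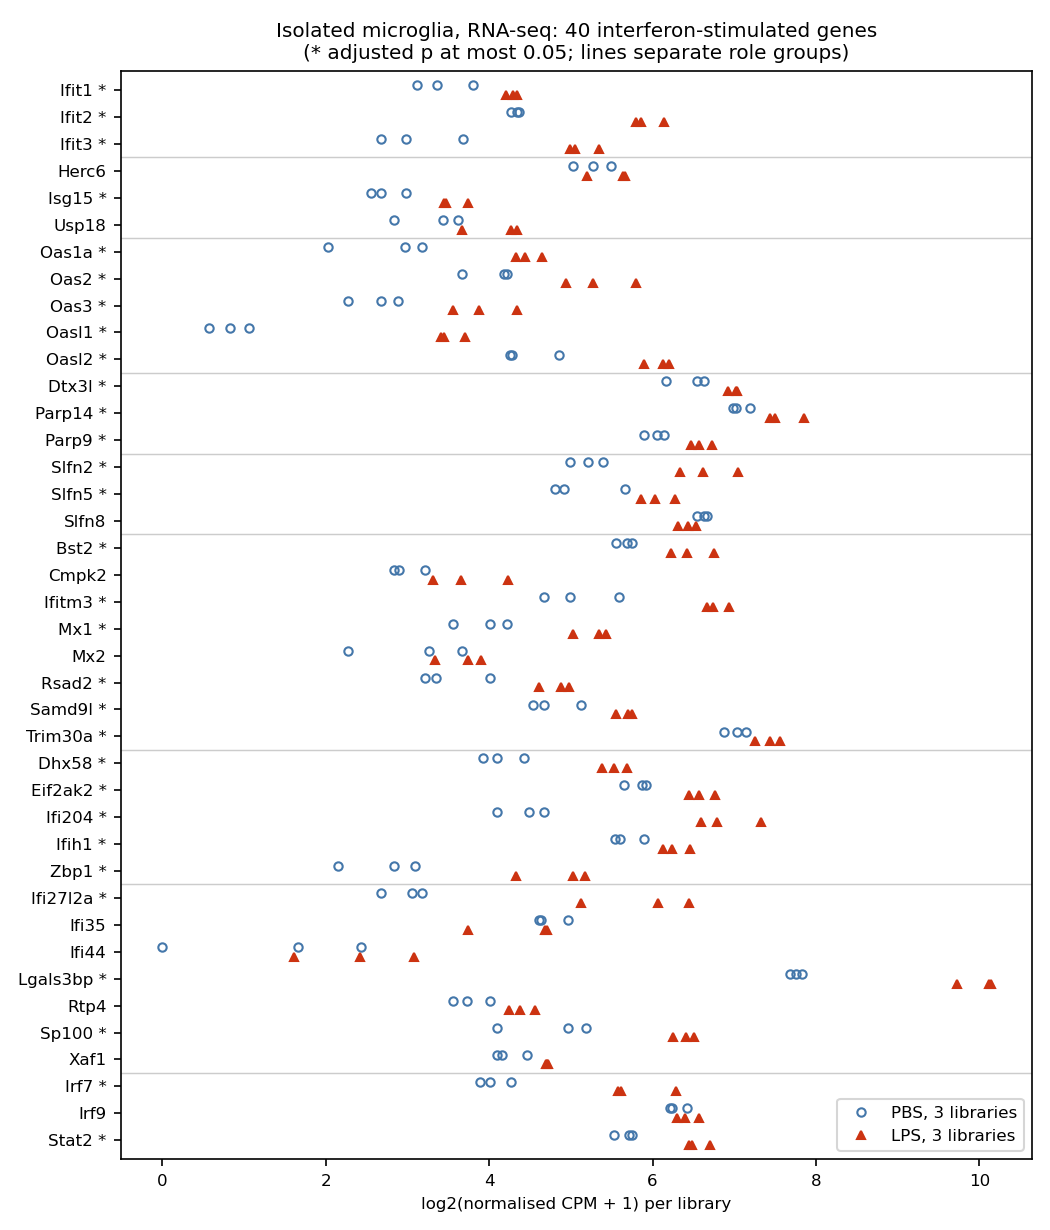
Each member's log2(normalised CPM + 1) in the 3 PBS (blue circles) and 3 LPS (red triangles) RNA-seq libraries of isolated microglia, grouped by role, with an asterisk on the 30 genes that passed the test. The LPS points lie clear of the PBS points for most genes, while those of Irf9, Herc6 and Ifi35 overlap and the LPS points of Slfn8 lie just to the low side of its PBS points.

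Marker genes of other cell types moved with LPS as well. Over all genes tested, 15.9% rose and 10.4% fell in RNA-seq, and in PAPERCLIP 156 of 5692 rose and 45 fell. In RNA-seq, 5 of 8 T and NK cell markers rose (all 5 that were tested), and their summed level went from 11.9 to 16.7 CPM up to 114 to 235 CPM. Monocyte markers rose in 4 of 5, from 166 to 383 CPM up to 520 to 671 CPM, while 6 of 10 microglial markers fell and 3 rose. In PAPERCLIP the T and NK cell markers summed to 0 to 8.88 CPM after PBS and 10.6 to 29.5 CPM after LPS, and none was tested; Cd3d, Cd3e, Klrb1c, Ncr1, Nkg7 and Prf1 were at 0 after PBS and Prf1 was at 0 after LPS. The 5 monocyte markers summed to 29.0 to 82.9 CPM and 69.5 to 153 CPM, with Chil3 and Ly6c2 at 0 after PBS, and 1 of them, Plac8, rose. Microglial markers held 4.31% to 4.90% of PAPERCLIP counts after PBS and 4.26% to 5.12% after LPS, with 1 of 10, P2ry12, lower. Erythrocyte markers fell in RNA-seq in 4 of 4 tested, from 113 to 127.9 CPM down to 6.56 to 16.8 CPM, and 1 of 6 endothelial markers fell, with sums of 423 to 990 CPM and 221 to 502 CPM. Neutrophil markers, 0 called of 5 tested, ran from 108 to 1093 CPM after PBS and from 642 to 797 CPM after LPS in RNA-seq. The 1 dendritic cell marker tested in PAPERCLIP fell, with list sums of 44.4 to 79.7 CPM and 14.1 to 19.2 CPM. The part of these cells in the member results was not tested.

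Among the transcription factors of the pathway, Irf7, which amplifies the interferon response, rose in both assays. In PAPERCLIP it measured 3.60, 11.6 and 8.86 normalised CPM (counts scaled to a common library size) in the 3 PBS libraries and 145, 107 and 104 CPM after LPS. The groups were far apart, with a log2 difference of 3.87 ± 0.39 (SE, adjusted p = 0.000138, edgeR). In RNA-seq it went from 15.1, 13.8 and 18.3 CPM to 46.7, 77.1 and 48.0 CPM, a log2 difference of 1.87 ± 0.23 (adjusted p = 0.000119, edgeR). Stat2, a signal transducer of the type I interferon receptor, measured 57.6, 50.1 and 59.1 CPM after PBS and 90.1, 93.5 and 113 CPM after LPS in PAPERCLIP. These groups did not overlap, yet the log2 difference of 0.82 ± 0.24 missed the threshold (adjusted p = 0.0928, edgeR) and passed it with the replicate number as a block (0.82 ± 0.25, adjusted p = 0.0459). Stat2 rose in RNA-seq, from 52.7, 51.4 and 45.1 CPM to 86.5, 88.6 and 103 CPM (log2 0.89 ± 0.12, adjusted p = 0.000267, edgeR). Irf9, which brings the complex to DNA, overlapped between groups in both assays, at log2 0.62 ± 0.39 in PAPERCLIP and 0.14 ± 0.12 in RNA-seq.

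All 3 IFIT genes, whose proteins bind viral RNA and hinder its translation, rose in both assays, against 2.74% of all genes in PAPERCLIP and 15.9% in RNA-seq. Ifit3 measured 46.8, 30.8 and 47.3 CPM after PBS and 327, 327 and 297 CPM after LPS in PAPERCLIP, and its LPS libraries were nearly level. Its log2 difference of 2.91 ± 0.24 had the smallest adjusted p of the module in this assay (3.28e-05, edgeR). In RNA-seq Ifit3 went from 5.37, 6.90 and 11.8 CPM to 32.3, 30.8 and 39.7 CPM (log2 2.06 ± 0.27, adjusted p = 0.000191, edgeR). Ifit2 measured 32.4, 19.3 and 20.7 CPM against 147, 128.2 and 124 CPM in PAPERCLIP and 19.5, 19.2 and 18.3 CPM against 57.0, 54.4 and 69.5 CPM in RNA-seq. Both comparisons separated the groups by a wide margin, at log2 2.46 ± 0.29 and 1.65 ± 0.16. Ifit1 had the widest gap between the assays in this family: 7.19, 3.85 and 8.86 CPM became 64.7, 84.4 and 56.8 CPM in PAPERCLIP, while 9.28, 7.67 and 12.9 CPM became 18.53, 19.3 and 17.4 CPM in RNA-seq. The log2 differences were 3.28 ± 0.42 (adjusted p = 0.000901, edgeR) and 0.87 ± 0.25 (adjusted p = 0.0256, edgeR). The RNA-seq call of Ifit1 was lost when PBS replicate 1, PBS replicate 2, LPS replicate 1 or LPS replicate 2 was left out (adjusted p = 0.0966, 0.0866, 0.0782 and 0.0845, edgeR).

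The ISG15 system attaches and removes a ubiquitin-like tag on proteins. Isg15, the tag itself, measured 14.4, 11.6 and 5.91 CPM after PBS and 93.8, 173 and 45.2 CPM after LPS in PAPERCLIP. The LPS libraries were spread widely but all exceeded the PBS libraries, at log2 3.29 ± 0.59 (adjusted p = 0.00680, edgeR). In RNA-seq Isg15 measured 4.88, 6.90 and 5.37 CPM against 12.4, 10.1 and 9.93 CPM, log2 0.94 ± 0.30 (adjusted p = 0.0403, edgeR). Neither call held in every setting: without PBS replicate 1, 2 or 3 the PAPERCLIP adjusted p was 0.0568, 0.0527 and 0.0593, and without any 1 of the 6 RNA-seq libraries it ran from 0.0607 to 0.155. Over all 15 alternatives, the RNA-seq call of Isg15 was lost in 11. Usp18, which removes the tag, was too low to test in PAPERCLIP, with 0 to 3.60 CPM after PBS and 13.9 to 40.7 CPM after LPS. In RNA-seq it did not pass (log2 0.82 ± 0.30, adjusted p = 0.0632, edgeR). Herc6, the ligase that adds the tag in mice, was called in neither assay, at log2 0.84 ± 0.51 and 0.21 ± 0.18.

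The cytosolic sensors of foreign nucleic acid gave 3 of 5 calls in PAPERCLIP and 5 of 5 in RNA-seq. Over all genes tested, 2.74% and 15.9% were called higher in these assays. Zbp1, a sensor of left-handed helices that can trigger cell death, went from 3.60, 3.85 and 5.91 CPM to 50.7, 58.8 and 45.2 CPM in PAPERCLIP. In RNA-seq it went from 3.42, 6.14 and 7.52 CPM to 31.6, 35.2 and 19.0 CPM. No libraries overlapped in either assay, and the log2 differences were 3.43 ± 0.46 and 2.37 ± 0.33. Ifi204, a DNA sensor of the p200 family, was among the few members whose RNA-seq difference was the larger. It measured 64.8, 30.8 and 38.4 CPM against 202, 232 and 208 CPM in PAPERCLIP (log2 2.25 ± 0.27) and 16.1, 24.5 and 21.5 CPM against 110, 160 and 95.1 CPM in RNA-seq (log2 2.60 ± 0.22). Dhx58, a helicase of the RIG-I family, had the same log2 difference of 1.44 in both assays. Its PAPERCLIP values of 43.2, 42.4 and 26.6 CPM against 127.6, 55.8 and 113 CPM were less even than those of RNA-seq, 14.2, 16.1 and 20.4 CPM against 45.3, 50.6 and 40.5 CPM. The PAPERCLIP call of Dhx58 (adjusted p = 0.0436, edgeR) was lost without PBS replicate 1, 2 or 3 (0.117, 0.113 and 0.199), LPS replicate 1 (0.151) or LPS replicate 3 (0.0893). It was lost in 7 of all 15 alternatives. Ifih1, the sensor MDA5, and Eif2ak2, the kinase PKR that halts translation, rose in RNA-seq, at log2 0.61 ± 0.14 and 0.79 ± 0.13. Their PAPERCLIP differences were 1.20 ± 0.43 and 1.16 ± 0.41, with no overlap between groups and adjusted p of 0.168 and 0.158 (edgeR).

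The OAS family makes or resembles the enzymes that make oligoadenylates, the signal for RNase L to degrade RNA. In RNA-seq 5 of 5 rose, against 15.9% of all genes, and in PAPERCLIP only Oasl2 had enough counts to be tested. Oasl2 measured 32.4, 15.4 and 8.86 CPM after PBS and 102, 127 and 83.5 CPM after LPS in PAPERCLIP, and 18.1, 18.4 and 27.9 CPM against 58.3, 72.3 and 68.7 CPM in RNA-seq. The groups stood clear of each other, at log2 2.48 ± 0.38 and 1.62 ± 0.19. Oasl1 had the largest RNA-seq difference of the module, from 0.488, 0.767 and 1.07 CPM to 9.61, 12.04 and 9.93 CPM (log2 3.67 ± 0.45, adjusted p = 0.000109, edgeR). In PAPERCLIP it had 0 counts in all 3 PBS libraries and 14.1, 31.7 and 13.9 CPM after LPS, at least 5.41-fold higher against a floor of 3 counts over the PBS group. Oas1a, Oas2 and Oas3 rose in RNA-seq by log2 1.77 ± 0.30, 1.45 ± 0.25 and 1.48 ± 0.33. In PAPERCLIP Oas1a and Oas2 had counts in LPS replicate 1 alone, and Oas3 ran from 0 to 3.85 CPM after PBS and from 3.75 to 16.6 CPM after LPS. Without LPS replicate 2 the RNA-seq call of Oas3 was lost at log2 1.20 (adjusted p = 0.0501, edgeR).

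The other antiviral effectors gave 3 calls among 4 tested in PAPERCLIP, against 2.74% of all genes, and 6 of 8 in RNA-seq, against 15.9%. Bst2 measured 867, 1206 and 998 CPM after PBS and 2753, 2862 and 1940 CPM after LPS in PAPERCLIP (log2 1.30 ± 0.21, adjusted p = 0.00318, edgeR), and 52.7, 46.0 and 50.5 CPM against 84.4, 106 and 73.6 CPM in RNA-seq (log2 0.84 ± 0.15). Without PBS replicate 1 its PAPERCLIP adjusted p was 0.0503. Ifitm3 rose from 151, 112 and 130 CPM to 652, 504 and 578 CPM in PAPERCLIP and from 24.4, 30.7 and 47.3 CPM to 101, 122 and 106 CPM in RNA-seq. Its log2 differences of 2.14 ± 0.21 and 1.69 ± 0.20 were far larger than the spread between libraries. Samd9l, a restriction factor for poxviruses, measured 0, 3.85 and 8.86 CPM against 30.0, 27.1 and 23.2 CPM in PAPERCLIP (log2 2.51 ± 0.61, adjusted p = 0.0362, edgeR). That call was lost without PBS replicate 1, 2 or 3 (adjusted p = 0.124, 0.126 and 0.0518, edgeR); in RNA-seq Samd9l rose by log2 0.87 ± 0.18.

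Trim30a, a dampener of Toll-like receptor signalling, measured 108, 65.5 and 38.4 CPM against 190, 139 and 137 CPM in PAPERCLIP. The groups did not overlap but the adjusted p was 0.0620 (edgeR, log2 1.16 ± 0.31). With the replicate number as a block it was 0.00284 (log2 1.19 ± 0.24). In RNA-seq it rose by log2 0.41 ± 0.11, a call lost without PBS replicate 1, PBS replicate 3 or LPS replicate 2 (adjusted p = 0.0566, 0.0517 and 0.0753, edgeR). Rsad2, the enzyme viperin, makes a nucleotide that stops viral RNA chains. It had 0 counts in the PBS PAPERCLIP libraries and 27.2, 40.7 and 9.28 CPM after LPS, at least 7.21-fold higher. In RNA-seq Rsad2 rose from 8.30, 9.21 and 15.0 CPM to 23.3, 28.4 and 30.6 CPM (log2 1.32 ± 0.26). Its neighbour Cmpk2, a kinase that supplies nucleotides, was not called in RNA-seq (log2 0.89 ± 0.33, adjusted p = 0.0665, edgeR). Mx1 and Mx2 had 0 PBS counts in PAPERCLIP, and 14 and 17 counts over the 3 LPS libraries; in RNA-seq Mx1 rose by log2 1.42 ± 0.22 and Mx2 did not pass (0.51 ± 0.36).

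Parp9, Parp14 and Dtx3l encode ADP-ribosyltransferases and the ubiquitin ligase that partners Parp9. The 3 genes rose in RNA-seq by similar amounts, log2 0.57 ± 0.12, 0.53 ± 0.12 and 0.52 ± 0.12. In PAPERCLIP none was called, with log2 differences of 0.83 ± 0.26, 0.86 ± 0.39 and 0.30 ± 0.27. Parp9 measured 39.6, 38.5 and 44.3 CPM after PBS and 73.2, 64.8 and 80.0 CPM after LPS in that assay, with no overlap (adjusted p = 0.118, edgeR), whereas the Dtx3l groups overlapped.

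The Schlafen genes divided. Slfn5 rose from 32.4, 57.8 and 14.8 CPM to 153, 210 and 124 CPM in PAPERCLIP (log2 2.26 ± 0.37) and from 26.9, 29.2 and 49.4 CPM to 57.0, 64.1 and 76.1 CPM in RNA-seq (log2 0.88 ± 0.21). Leaving out PBS replicate 1 put its adjusted p at 0.0503 in PAPERCLIP and 0.0545 in RNA-seq (edgeR). Slfn2, linked to quiescence of immune cells, was tested in RNA-seq and not in PAPERCLIP, and rose from 36.1, 30.7 and 40.8 CPM to 97.5, 132 and 79.4 CPM (log2 1.53 ± 0.19). Slfn8 overlapped between groups in PAPERCLIP, at log2 0.65 ± 0.41. In RNA-seq it measured 92.3, 98.2 and 100.5 CPM after PBS and 78.2, 85.8 and 91.8 CPM after LPS, so that every LPS library lay below every PBS library, but it was not called (log2 -0.19 ± 0.11, adjusted p = 0.232, edgeR).

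Of the remaining 7 genes, Lgals3bp, a secreted galectin-binding glycoprotein, had the smallest adjusted p of the module in RNA-seq (7.55e-07, edgeR). It measured 227, 216 and 204 CPM after PBS and 1126, 1108 and 843 CPM after LPS there, and 137, 77.1 and 106 CPM against 507, 303 and 546 CPM in PAPERCLIP. The log2 differences were close, 2.25 ± 0.12 and 2.08 ± 0.28. Ifi27l2a, a small mitochondrial protein, rose from 10.8, 34.7 and 32.5 CPM to 333, 190 and 285 CPM in PAPERCLIP and from 7.33, 5.37 and 8.06 CPM to 65.9, 86.2 and 33.9 CPM in RNA-seq. Its log2 differences of 3.36 ± 0.35 and 3.16 ± 0.34 were again close. Rtp4, a receptor transporter protein, measured 43.2, 73.2 and 106 CPM against 274, 279 and 226 CPM in PAPERCLIP (log2 1.78 ± 0.27, adjusted p = 0.00237, edgeR). In RNA-seq it measured 12.2, 10.7 and 15.0 CPM against 17.8, 22.6 and 19.9 CPM, with no overlap and an adjusted p of 0.0544 (edgeR). Sp100, a nuclear body protein, rose in RNA-seq from 30.3, 16.1 and 35.5 CPM to 89.9, 84.3 and 75.3 CPM (log2 1.56 ± 0.20) and in PAPERCLIP had counts in LPS replicate 1 alone. Xaf1 and Ifi35 were not called in RNA-seq (log2 0.48 ± 0.20 and -0.28 ± 0.25), Ifi35 was not called in PAPERCLIP (0.15 ± 0.37), and Ifi44 was too low to test in either.

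The size of the response was larger in PAPERCLIP for 23 of the 27 members tested in both assays, with medians of 1.78 and 0.87. The PAPERCLIP filter set these 27, and members scarce in the PBS libraries could pass it only where they rose. That selection favours large PAPERCLIP differences, and its weight was not tested. No share of all genes is given beside the 23. No member passed the test of the difference itself: 0 of 40 in edgeR and 0 of 40 in DESeq2. Over all genes, 0.00983% passed in edgeR and 87 of 10170 genes in DESeq2. By each tool 13 members had an unadjusted p under 0.05, against 918 of 10170 genes by edgeR and 840 by DESeq2. The difference, RNA-seq minus PAPERCLIP, was below 0 for 34 members and above 0 for 6, with a median of -0.77 against -0.04 over all genes. Ifit1 had the smallest p, with a difference of -2.51 ± 0.52 (adjusted p = 0.0952, edgeR), followed by Irf7 at -2.09 ± 0.55 and Rtp4 at -1.18 ± 0.35. Without a count filter 5 members passed (Ifit1, Irf7, Isg15, Rsad2 and Slfn5), and with a replicate block 1 passed, Slfn5 at -1.42 ± 0.32 (adjusted p = 0.0469). Assay, genotype, isolation and possibly dose differ together here and cannot be told apart.

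**Figure D4:**
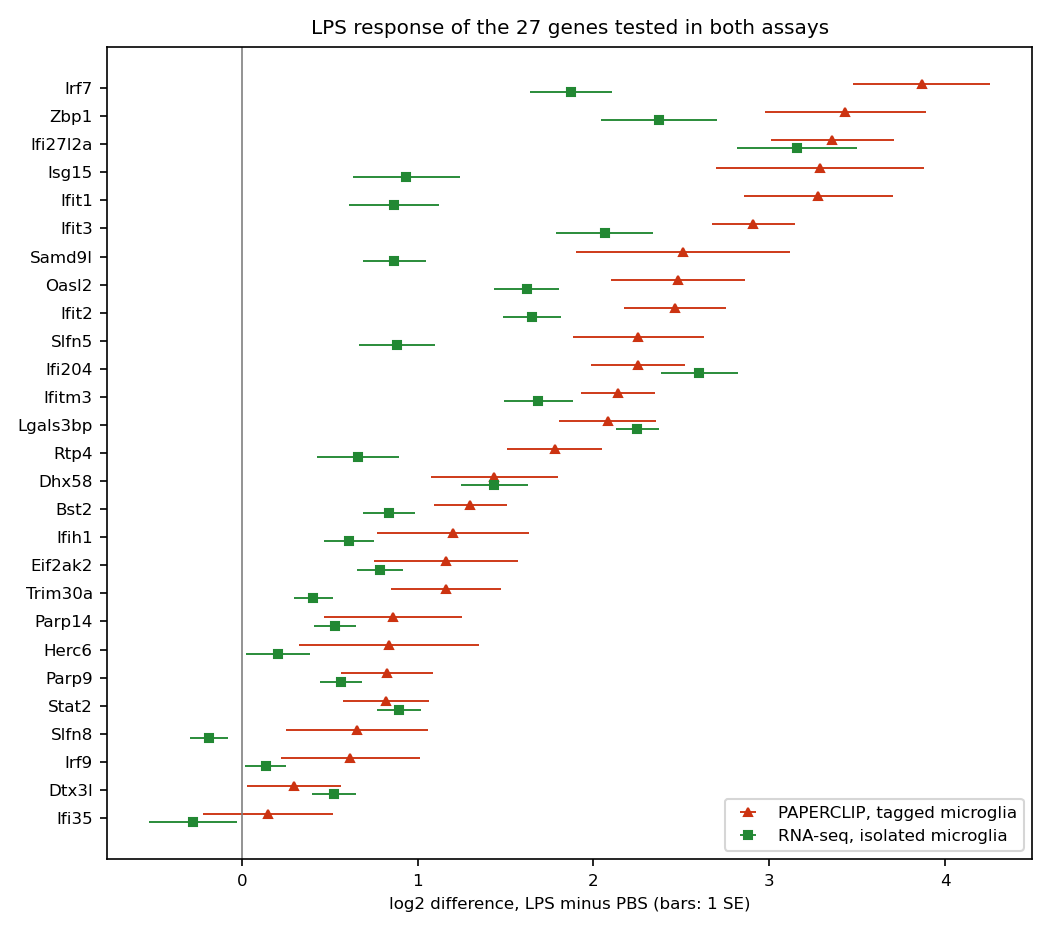
Log2 difference between LPS and PBS, with bars of 1 SE, for the 27 genes tested in both assays, in PAPERCLIP of tagged microglia (red triangles) and RNA-seq of isolated microglia (green squares). Irf7, Isg15 and Ifit1 lie far apart between the assays, while Ifi27l2a, Dhx58, Lgals3bp and Stat2 nearly coincide.

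Upstream of the members, the interferons themselves were at the limit of detection. Of 11 ligand genes, 0 could be tested in any comparison. Ifnb1, the early type I interferon, had 0 counts after PBS in PAPERCLIP and 7.50, 3.02 and 2.32 CPM after LPS, and 0 counts in all RNA-seq microglia. Ifng measured 0, 0.767 and 0 CPM after PBS and 4.80, 2.89 and 2.48 CPM after LPS in RNA-seq and had no PAPERCLIP count. Ifnk had counts in 2 RNA-seq LPS libraries, at 0.686 and 0.482 CPM, and Ifna1, Ifna2, Ifna4, Ifna5, Ifne, Ifnz, Ifnl2 and Ifnl3 had none in either microglial assay. Of 6 receptor chains, 5 were tested in each assay. Ifnar1 rose in RNA-seq from 140, 120.4 and 127.9 CPM to 224, 227 and 216 CPM (log2 0.78 ± 0.09, adjusted p = 6.86e-05, edgeR). Ifngr2, Il10rb and Ifnar2 rose by log2 0.57 ± 0.08, 0.38 ± 0.10 and 0.35 ± 0.09, and Ifngr1 did not pass (0.14 ± 0.10). In PAPERCLIP none of the 5 passed, with Ifnar1 at 0.62 ± 0.54, Ifnar2 at 0.07 ± 0.18, Ifngr1 at -0.03 ± 0.18, Ifngr2 at 0.55 ± 0.27 and Il10rb at 0.30 ± 0.20, and 0 of 5 had an unadjusted p under 0.05. Over all genes, 15.9% were higher in RNA-seq and 2.74% in PAPERCLIP. In PAPERCLIP 900 of 5692 genes had an unadjusted p under 0.05 (edgeR), so 0 of 5 receptors does not stand apart from all genes. The interferon lambda receptor Ifnlr1 was too low to test.

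Among the JAK-STAT transducers, the receptor-bound kinase Tyk2 rose in RNA-seq by log2 0.33 ± 0.10 (adjusted p = 0.0323, edgeR). Of 10 inhibitors, Socs3, a feedback brake on cytokine receptors, rose in both assays (log2 2.66 ± 0.61 and 0.79 ± 0.15); in RNA-seq Ptpn6 rose by 0.31 ± 0.09 and Pias2 fell by 0.37 on the log2 scale. Of 18 sensors and adaptors, 1 rose in PAPERCLIP and 6 rose and 3 fell in RNA-seq. The shares over all genes tested were 2.74% higher in PAPERCLIP, and 15.9% higher and 10.4% lower in RNA-seq. Tlr2, a receptor for bacterial lipoproteins, rose in both (1.65 ± 0.23 and 1.63 ± 0.10), and Ikbke, a kinase that activates interferon regulatory factors, rose in RNA-seq from 0.977, 1.53 and 4.30 CPM to 67.9, 85.3 and 39.7 CPM (4.79 ± 0.42). Trim25 and the LPS co-receptor Cd14 rose in RNA-seq by 1.00 ± 0.13 and 0.61 ± 0.09.

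A further 41 interferon-induced genes outside the module gave 7 higher and 0 lower among 17 tested in PAPERCLIP, with a median of 1.00. Over all genes in that assay 2.74% were higher. In RNA-seq 18 rose and 0 fell among 32 tested, against 15.9% and 10.4% of all genes, with a median of 0.66. Cxcl10, a chemokine for T cells, rose in both (log2 6.21 ± 0.87 and 2.12 ± 0.21), as did Apobec3 (1.78 ± 0.38 and 1.19 ± 0.09) and Ifitm2 (1.70 ± 0.30 and 2.43 ± 0.26), and Samhd1 rose in RNA-seq (0.82 ± 0.10). Genes known mainly from interferon gamma gave 1 higher and 1 lower among 10 tested in PAPERCLIP and 9 higher and 2 lower among 18 in RNA-seq. Over all genes 45 of 5692 were lower in PAPERCLIP, and the RNA-seq shares were the 15.9% and 10.4% above. Gbp2 rose in both (1.50 ± 0.38 and 1.78 ± 0.24), and Tap1, Nlrc5 and Cd274 rose in RNA-seq (1.21 ± 0.12, 1.61 ± 0.17 and 1.84 ± 0.23). Cd74, the invariant chain of MHC class II, was the PAPERCLIP gene that fell (by 1.17 on the log2 scale); it was picked after its values were seen.

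Among the untreated brain groups, the module took its highest share of counts in the Cx3cr1 libraries. Its share of counts was 0.177% and 0.164% in the 2 untreated Cx3cr1 libraries, 0.0428% and 0.0408% in Gfap, 0.0216% and 0.0220% in Gad2 and 0.0155% and 0.0182% in Camk2a. Of the 40 genes, 18 could be tested in a fit of the 8 libraries, and members without cortical counts could pass the count filter through the Cx3cr1 libraries alone. Of the 18, 13 were higher in untreated Cx3cr1 than in the mean of the cortical groups, against 21.8% of all genes. None was lower (0 of 18 by edgeR and by DESeq2, also at an unadjusted p under 0.05). The median fitted log2 difference was 4.36, against -0.48 over all genes. Setting tested members that lack cortical counts at their bound could not move it, since their fitted values and their bounds both lie above it. Cell type was confounded with whole brain against cortex, and the Cx3cr1 libraries were the shallowest of the fit. Thinning every library to the shallowest total left 3 members called, while 25 were called with no count filter and 22 with a minimum of 5 CPM. The thinned fit tested 4523 genes in place of 9421. Those of the 13 no longer called there had too few counts to be tested.

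**Figure D5:**
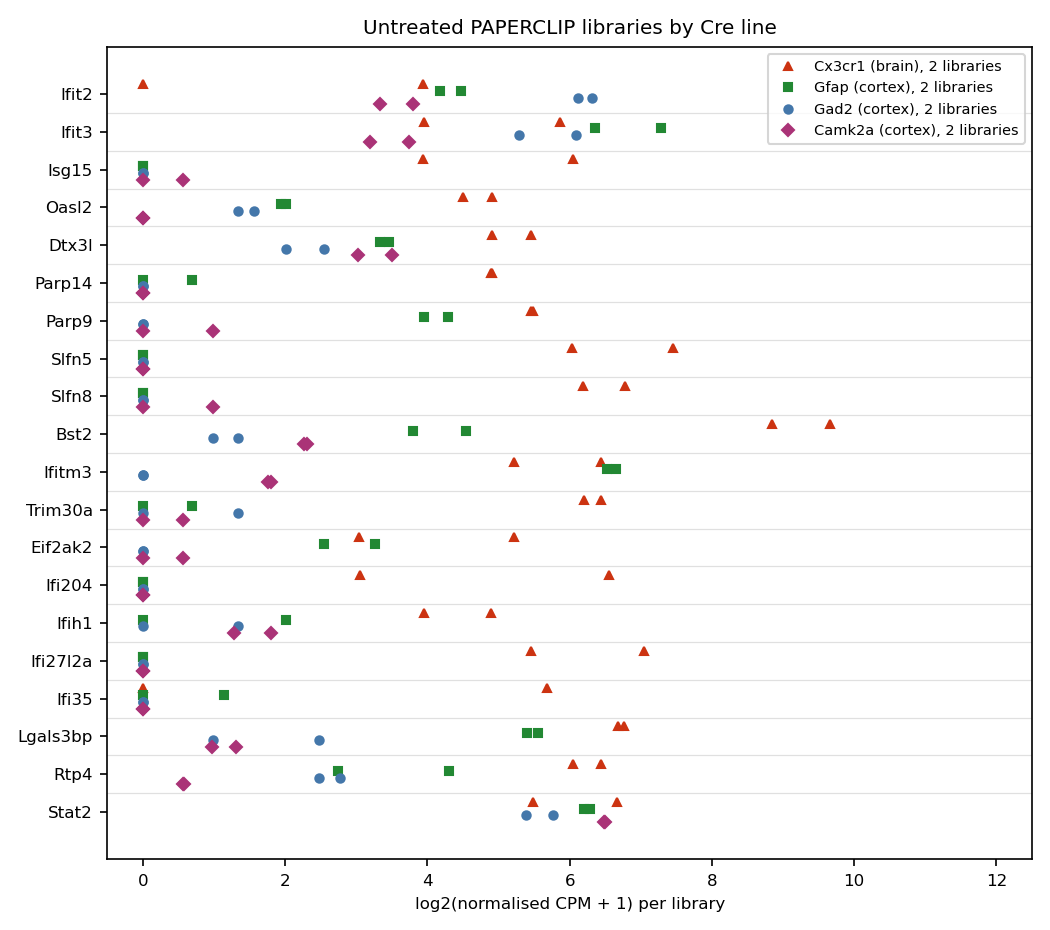
Log2(normalised CPM + 1) in each of the 2 untreated PAPERCLIP libraries per Cre line for the 20 members with a mean of at least 20 CPM in any of them. Untreated Cx3cr1 libraries (red) have the highest mean for 16 of the 20, while Ifit3 and Ifitm3 are highest in Gfap, Ifit2 in Gad2 and Stat2 in Camk2a.

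Several members had few or no counts in the cortical libraries. Slfn5 measured 64.6 and 174 CPM in untreated Cx3cr1 and had 0 counts in all 6 cortical libraries, at least 324-fold higher against 3 counts over the cortical group, a bound of 176-fold from replicate 1 alone and 474-fold from replicate 2 alone. Ifi27l2a measured 43.0 and 131 CPM with 0 cortical counts, at least 235-fold higher, or 117-fold and 355-fold from each replicate alone. Ifi204 measured 93.3 and 7.26 CPM, an uneven pair of 13 counts and 1 count, with 0 cortical counts, and was too low to test. Slfn8 measured 71.7 and 109 CPM and had counts in 1 cortical library, Camk2a replicate 2 at 0.988 CPM (adjusted p = 1.22e-07, edgeR). Trim30a measured 86.1 and 72.6 CPM against at most 1.52 CPM in any cortical library (adjusted p = 9.3e-08, edgeR). Isg15 at 14.3 and 65.3 CPM and Parp14 at 28.7 and 29.0 CPM had at most 0.606 CPM in cortical libraries but were too low to test.

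Bst2 was present in every group with a wide gap: 811 and 457 CPM in untreated Cx3cr1, 12.8 and 22.4 in Gfap, 1.52 and 0.973 in Gad2 and 3.81 and 3.95 in Camk2a. It was higher in Cx3cr1 by log2 7.09 ± 0.30 (adjusted p = 2.84e-13, edgeR) and higher in Gfap than in neurons by 3.07 ± 0.51 (adjusted p = 3.18e-05). Rtp4 was also highest in Cx3cr1 and then Gfap, but its Gad2 values were above those of Camk2a, at 86.1 and 65.3, 5.71 and 18.8, 4.55 and 5.84, and 0.477 and 0.494 CPM in those groups. Its Cx3cr1 difference was log2 4.40 ± 0.58. Lgals3bp measured 108 and 102 CPM in Cx3cr1, 41.4 and 46.0 in Gfap and at most 4.55 in neurons, with log2 differences of 4.31 ± 0.46 for Cx3cr1 and 4.60 ± 0.40 for Gfap over neurons. Parp9 had a like pattern, with 43.0 and 43.5 CPM in Cx3cr1, 18.55 and 14.5 in Gfap and at most 0.988 in neurons. Oasl2 at 21.5 and 29.0 CPM, Ifit1 at 14.3 and 21.8 CPM, Dtx3l at 43.0 and 29.0 CPM and Ifih1 at 28.7 and 14.5 CPM completed the 13 with Ifitm3. These 4 rest on few Cx3cr1 counts: 3 and 4 for Oasl2, 2 and 3 for Ifit1, 6 and 4 for Dtx3l and 4 and 2 for Ifih1. Without untreated replicate 1 the calls of Ifih1 (log2 3.15, adjusted p = 0.153, edgeR) and Dtx3l (1.87, adjusted p = 0.104) were lost, and Ifit1, Oasl2 and Trim30a had too few counts to be tested. Without untreated replicate 2, Ifit1, Oasl2, Ifi27l2a, Slfn5 and Slfn8 had too few counts to be tested. In each case 8 of the 13 were still called.

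Gfap libraries, which also held oligodendrocyte markers, differed from the neuronal ones. Of 18 members, 9 were higher in Gfap than in the mean of Gad2 and Camk2a, against 31.3% of all genes. None was lower by edgeR or DESeq2 (0 at an unadjusted p under 0.05). With every library thinned to the shallowest total, 3 were called (Ifit3, Bst2 and Lgals3bp). That fit tested 4523 genes in place of 9421, and Ifitm3, Parp9 and Herc6 had too few counts to be tested. The median log2 difference was 1.06, against 0 over all genes. Ifitm3 measured 99.9 and 91.5 CPM in Gfap, 0 and 0 in Gad2 and 2.38 and 2.47 in Camk2a, at least 52.8-fold higher in Gfap than in Gad2. Its untreated Cx3cr1 libraries measured lower, at 86.1 and 36.3 CPM, but on only 12 and 5 counts. Gfap was not tested against Cx3cr1 for any member. Ifit3 had its highest mean in Gfap too, at 156 and 81.2 CPM, against 66.8 and 38.0 in Gad2, 8.11 and 12.4 in Camk2a and 57.4 and 14.5 in Cx3cr1 (8 and 2 counts). Its Gfap difference from neurons was log2 2.31 ± 0.30 (adjusted p = 1.71e-06, edgeR), while that of Cx3cr1 from cortex was -0.11 ± 0.64. The other calls were Lgals3bp, Parp9, Bst2, Rtp4, Herc6, Oasl2 and Cmpk2. Rtp4 was lost without Gfap replicate 2 (adjusted p = 0.168, edgeR), Oasl2 without Gfap replicate 1, Camk2a replicate 1 or Camk2a replicate 2 (0.0587, 0.0762 and 0.0718), and Cmpk2 (log2 1.26 ± 0.52) without Gfap replicate 1 or 2, Gad2 replicate 1 or Camk2a replicate 1 (0.161, 0.162, 0.171 and 0.145).

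The 2 neuronal groups differed in the IFIT family, where 3 of 3 were lower in Camk2a than in Gad2. Over the module 4 of 18 were lower, against 9.61% of all genes, and 2 were higher, against 11.7%; the median was 0.36 over the members and 0.03 over all genes. Ifit2 measured 68.3 and 78.8 CPM in Gad2 and 9.06 and 12.8 in Camk2a, the highest level of Ifit2 in any untreated group, with 17.1 and 21.2 in Gfap and 14.3 and 0 in Cx3cr1. The log2 difference was -2.75 ± 0.33 (adjusted p = 3.9e-06, edgeR), and that of Ifit3 was -2.30 ± 0.43 (adjusted p = 0.000502). Ifit1 had 9 counts in Gad2 and 0 in Camk2a, at least 7.33-fold higher in Gad2 (adjusted p = 0.00412, edgeR). Rtp4 was the other gene lower in Camk2a, and Herc6 and Stat2 were higher. Herc6 measured 13.8 and 9.88 CPM in Camk2a, 0 and 1.95 in Gad2 and 15.7 and 16.4 in Gfap. Ifit1 was lost without Camk2a replicate 1 or 2 (adjusted p = 0.0595 and 0.0531, edgeR), Herc6 without Gad2 replicate 1 or Camk2a replicate 1 (0.0772 and 0.0602), and Stat2 and Rtp4 without any 1 of the 4 neuronal libraries (0.072 to 0.182 and 0.0843 to 0.25).

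Stat2 was detected in every untreated library. It measured 100 and 43.5 CPM in untreated Cx3cr1, 77.0 and 72.7 in Gfap, 41.0 and 53.5 in Gad2 and 89.6 and 88.5 in Camk2a. The Cx3cr1 pair alone spanned nearly the range of all groups, and the log2 difference of Cx3cr1 from cortex was 0.08 ± 0.36. Among the receptors, Ifnar1 ran from 14.3 to 46.9 CPM over the 8 libraries and was called in none of the 3 comparisons. Eif2ak2 at 7.17 and 36.3 CPM and Ifi35 at 50.2 and 0 CPM in untreated Cx3cr1 were uneven between libraries. Mx1, Oas2, Oasl1 and Sp100 had no count in any untreated library.

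The PBS libraries were also compared with the untreated Cx3cr1 libraries. Here 26 members were tested and 0 passed in either direction by edgeR, against 2.48% of all genes. At an unadjusted p under 0.05 by edgeR there were 2 higher (Ifitm3 and Bst2) and 2 lower (Slfn5 and Ifi27l2a). Over all genes, 997 of 5112 had such a p in either direction, so the members did not exceed that share. DESeq2 called Slfn5 and Ifi27l2a lower after PBS (log2 -1.88 ± 0.59, adjusted p = 0.0250, and -1.80 ± 0.60, adjusted p = 0.0376). That tool called 234 of 5112 genes, 174 of them lower. The median log2 difference was -0.30 over the members and 0.02 over all genes.

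In the liver library, 24 of the 40 genes had a count, and together they took 0.238% of counts. Bst2 had 155 of 115734 counts, or 1339 CPM (95% Clopper-Pearson interval 1137 to 1567), Ifitm3 had 63 (544 CPM, 418 to 696) and Stat2 had 15 (130 CPM, 72.5 to 214). The other 21 genes had 1 to 6 counts, and the floor of 3 counts for a gene at 0 is 25.9 CPM, while the same interval for a count of 0 ends at 31.9 CPM; intervals and floors cover counting error only.

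In Ptbp2-KO cortex the module took 0.0118%, 0.0114% and 0.0109% of counts. Ifit2 measured 17.5 ± 0.67 CPM (SD, n = 3), Stat2 17.2 ± 2.2, Cmpk2 16.1 ± 0.62 and Irf9 11.4 ± 1.5. Eif2ak2 measured 7.05 ± 0.91 CPM and Samd9l at 5.96 ± 0.76. The other members had means of at most 3.21 CPM. No control cortex was analysed here, so these values are levels with no comparison.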

How the data were processed

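The authors deposited whole-number counts per gene for each library, with no normalisation. Per the submitters' processing notes, cutadapt, Novoalign and STAR were used and the build was mm10; versions, the collapse of the 7-base random barcodes and the use of strand are not given in the labels or notes. Of 47069 Ensembl identifiers 46488 matched a symbol, and 23112 genes were joined between assays. Differences were tested with edgeR 4.0.16 in R 4.3.3 (quasi-likelihood test, filterByExpr, TMM scaling, Benjamini-Hochberg over all genes tested, adjusted p at most 0.05), checked on simulated counts; ± is the standard error unless SD is given. Normalised CPM are counts scaled to TMM-adjusted library totals. The members and gene lists were chosen with earlier results of these data known. All 40 members could be named; values per library are given for members past the threshold in an LPS comparison (at most 25) and at or above 20 CPM in an untreated group. Of the pathway lists, all ligands and receptors are named, and up to 4 called genes of each other list with the smallest p. For the JAK-STAT transducers, part of the results is not reported here. Alternatives were DESeq2 1.42.0, other scalings and filters, thinning, a replicate block, a term for the file-name prefix and leaving out each library. In PAPERCLIP, deviations of same-numbered PBS and LPS libraries from their group means correlated at 0.13, 0.24 and 0.188 over 5608 genes. Libraries of unlike number correlated at -0.186 to -0.0258, values that the centring ties to the former. The labels give replicate numbers and do not say whether they mark pairs, and the main fit did not use them. Replicate pairs differed by more than sampling noise (chi-square per degree of freedom 2.1 to 76.9). Positions and promoters come from RefSeq tables of GRCm38.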

Additional observations from a re-analysis of the deposited data

How the results depend on the processing

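None of the members called for LPS in either assay or in the 3 baseline comparisons reversed its direction under an alternative that still tested it. Members that kept their call in every alternative that still tested them were 11 of 16 (PAPERCLIP, LPS), 24 of 30 (RNA-seq, LPS), 11 of 13 (Cx3cr1), 6 of 9 (Gfap) and 2 of 6 (Camk2a against Gad2). Genes called over the whole table for LPS in PAPERCLIP numbered 632 with no filter, 424 with the replicate block and 317 with the file-name prefix as a term, and 1781 for RNA-seq with DESeq2. For the difference between assays, members called numbered 5 with no filter and 1 with the replicate block, and genes called among all genes 87 with DESeq2, 116 with no filter, 57 with the block, 2 when thinned, 33 with the prefix and 42 without replicate 3 of both groups. For Cx3cr1 against cortex, members higher numbered 25 with no filter, 22 at 5 CPM and 3 when thinned. Thinning left 4523 genes tested at baseline in place of 9421, of which 2731 were called for Cx3cr1 against cortex. Thinning left 3 members and 2236 genes for Gfap, and 0 members higher, 2 lower and 494 genes for Camk2a against Gad2. For PBS against untreated, 2 members were lower with DESeq2 and 2 with no filter, and genes called were 234 with DESeq2, 313 with no filter and 68 at 5 CPM. The cause of these shifts was not tested beyond the number of genes tested or reads kept. Leaving out 1 library at a time gave 12 to 15 members higher for LPS in PAPERCLIP (74 to 167 genes), 26 to 30 in RNA-seq (1849 to 2972), 0 to 2 for the difference (1 to 36), 9 to 14 for Cx3cr1 (3566 to 4616), 6 to 10 for Gfap (4310 to 6381), 0 to 3 higher and 2 to 4 lower for Camk2a against Gad2 (1009 to 2649), and 0 to 1 higher and 0 to 2 lower for PBS against untreated (3 to 496). In RNA-seq, same-numbered libraries correlated at 0.114, 0.0977 and 0.192, and libraries of unlike number at -0.169 to 0.108. The replicate block gave 29 members there, without Isg15 (adjusted p = 0.0624, edgeR), and 2770 genes. Outside the results named in the text, the block changed no call of a member. At baseline, 22 of 40 members had too few counts to be tested.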
